A study of Mus musculus with 8 samples.

Results

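The CCN family comprises 6 genes, Ccn1 to Ccn6, and all 6 were found by symbol among the 18560 genes of the expression table. They were measured by RNA sequencing in mouse tissue labelled dorsal root ganglia, the clusters of sensory neuron cell bodies beside the spinal cord. Each of 4 libraries carried the genotype label WT_P60 and each of another 4 the label cKO_P60, where cKO is a conditional knockout of Alyref, an adaptor that brings mRNA to the nuclear export machinery. No inflammatory treatment, no Cre driver and no sex is given in the labels. The title of the study links Alyref loss to inflammatory pain and to nuclear export of Ccn3 mRNA marked by 5-methylcytosine, so the question for the family is how each member's RNA level compared between the groups. All 6 members passed the filter on low counts.

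CCN proteins are secreted matricellular proteins, which sit in the extracellular matrix and signal to cells rather than build the scaffold. Most are assembled from an insulin-like growth factor binding protein module, a von Willebrand factor C module, a thrombospondin repeat and a C-terminal cystine knot, and CCN5 lacks the last of these. They bind integrins, heparan sulfate proteoglycans and the LRP and NOTCH receptors. Ccn1 and Ccn2 are classic targets of the YAP and TAZ coactivators, of serum response factor and, for Ccn2, of transforming growth factor beta, and Ccn4 was first described as a WNT-induced gene.

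RefSeq promoter windows of GRCm38.p6, which run from 250 bases before a gene's start to 50 after it, were at hand for Ccn1 and Ccn6. Ccn1 is shown as a known target of YAP and TAZ, and Ccn6 for contrast, as the member with the lowest level. Capitals mark CATTCC, the core bound by the TEAD partners of YAP, and CAGAC, a core bound by SMAD proteins, both searched on either strand.
Ccn1: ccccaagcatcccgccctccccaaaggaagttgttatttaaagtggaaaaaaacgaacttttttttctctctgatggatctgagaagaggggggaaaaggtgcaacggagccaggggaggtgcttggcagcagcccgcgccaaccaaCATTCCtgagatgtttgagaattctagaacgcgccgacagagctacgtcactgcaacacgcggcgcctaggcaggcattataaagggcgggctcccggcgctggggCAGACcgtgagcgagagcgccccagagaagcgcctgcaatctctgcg
Ccn6: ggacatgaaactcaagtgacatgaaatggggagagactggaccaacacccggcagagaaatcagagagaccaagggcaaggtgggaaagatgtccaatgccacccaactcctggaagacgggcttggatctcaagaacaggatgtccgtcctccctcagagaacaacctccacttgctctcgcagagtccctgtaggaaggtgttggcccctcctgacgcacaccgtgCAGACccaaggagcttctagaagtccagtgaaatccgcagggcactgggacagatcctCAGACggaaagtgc
The start used for the Ccn6 window is the one of its GENCODE model, which spans 39150970 to 39163794, and it lies inside the longer RefSeq span of the gene given further on. The Ccn1 window lies at chr3:145649936-145650235 on the minus strand and the Ccn6 window at chr10:39163745-39164044 on the minus strand. Ccn1 held 1 TEAD core and 1 SMAD core, and Ccn6 held 0 and 2. The TEAD core was present in 14.7% and the SMAD core in 49.6% of 32851 promoter windows of the same length. The CArG box of serum response factor had 0 matches in either window and was present in 1.63% of all windows.

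The members lie on 4 chromosomes of GRCm38 and differed in transcript length, from 1419 bases in Ccn6 to 5097 in Ccn4, against a median of 2538 over coding genes. Ccn1 (Entrez 16007) spans 145646971 to 145649985 on chromosome 3, and Ccn5 (Entrez 22403) spans 163820752 to 163833146 on chromosome 2. Ccn2 (Entrez 14219, 24595442 to 24598683) and Ccn6 (Entrez 327743, 39150970 to 39174376) share chromosome 10, while Ccn3 (Entrez 18133, 54745910 to 54753762) and Ccn4 (Entrez 22402, 66891369 to 66923201) share chromosome 15. In the GENCODE annotation of the same build each has 5 exons in its longest coding transcript. Coding lengths lay between 1044 and 1137 bases, except in Ccn5, which had 753.

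The transcripts differed in base composition and in how much sequence they share with other genes. Cytosine, the base that carries the 5-methyl mark, made up 23.4% of the Ccn3 transcript, against a median of 24.3% over 21901 coding genes, and 28.2% of the Ccn5 transcript, the highest of the family. Runs of 50 bases were used to find shared sequence. None were shared with another gene in Ccn1, Ccn4 and Ccn5, and 1.13% were shared in Ccn3. In Ccn6 31.8% were shared with Tube1, a tubulin gene on the opposite strand, and in Ccn2 19.0% were shared with Gm15270, a noncoding transcript on the opposite strand. The strand setting of the libraries is not given, so reads of Ccn6 and Tube1, and of Ccn2 and Gm15270, cannot be told apart in those stretches.

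Depth was even, but WT replicate 2 stood apart from the remaining 7 libraries. Estimated counts summed to 15522915 to 16482614 per library. Spearman correlations of WT replicate 2 with the other libraries were 0.944 to 0.967, against 0.990 to 0.996 among the other 7. The 8 nociceptor markers summed to 3013 TPM (length-corrected transcript abundance) in that library and to 220.0 to 957.9 TPM in the others, and the 12 fibroblast markers to 2939 TPM against 762 to 1393 TPM. Markers of spinal cord were present in every library, although these are genes not typical of a ganglion. The 9 spinal neuron genes summed to 475.9 to 568.2 TPM outside WT replicate 2 and 232.7 TPM in it. Oligodendrocyte markers summed to 7174 to 12526 TPM outside it and 3013 TPM in it, and astrocyte markers to 1534 to 2205 TPM and 653.3 TPM. Pan sensory neuron markers ran the other way, at 849.2 to 2085 TPM and 5919 TPM. Leaving out WT replicate 2 therefore keeps the libraries with lower sensory neuron and higher spinal cord marker sums. Alyref, the targeted gene, stood at 49.8, 54.9, 47.9 and 54.5 TPM across the WT libraries in replicate order, against 51.9, 46.3, 49.9 and 48.7 TPM across the cKO libraries. The groups overlapped, and Alyref did not pass the test (log2 fold change −0.11 ± 0.097 SE, adjusted p = 0.887, edgeR). The whole-tissue level of Alyref RNA therefore does not separate the libraries labelled cKO from those labelled WT. Groups are named by their labels throughout, a direction rests on those labels, and results are given with and without WT replicate 2.

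Ccn2 and Ccn3 made up most of the family's RNA. On the TPM scale, which corrects for transcript length, Ccn2 lay above 73.5% of all 18560 genes and Ccn3 above 66.3%, while Ccn1 lay above 47.1%, Ccn5 above 34.9%, Ccn4 above 25.2% and Ccn6 above 19.7%. Together Ccn2 and Ccn3 held 73.1% to 80.2% of the summed family TPM in every library. Ccn2 exceeded Ccn3 in 7 of 8 libraries, the exception being WT replicate 2, and Ccn5 exceeded Ccn4 in 7 of 8, the exception being cKO replicate 4. Ccn3 exceeded Ccn1, Ccn1 exceeded Ccn5 and Ccn4 exceeded Ccn6 within each of the 8 libraries. Across libraries the TPM ranges of all 5 neighbouring pairs in this order overlapped, so the order rests on comparison within libraries. Leaving out WT replicate 2, the ranges of Ccn3 (12.55 to 28.17 TPM) and Ccn1 (7.30 to 10.33 TPM) were apart, and those of the other 4 pairs still overlapped.

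**Figure D1:**
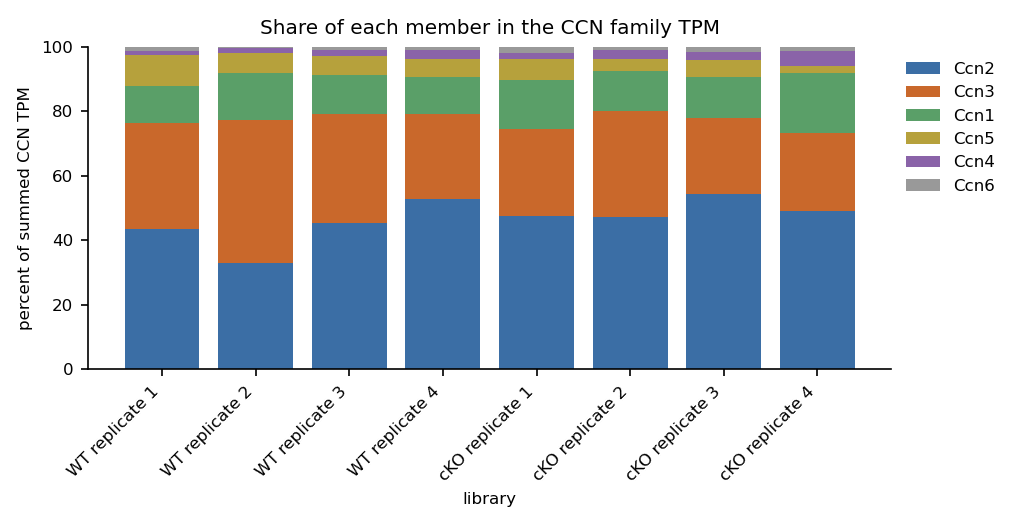
Stacked bars give the percent of the summed TPM of the 6 CCN genes held by each member (vertical axis) in each library (horizontal axis). Ccn2 is the largest share in 7 libraries, and Ccn3 is the largest in WT replicate 2, at 44.5%.

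The family sum was higher in the WT libraries on average, with groups that touched. It was 79.9, 146.8, 83.7 and 68.6 TPM across the WT libraries in replicate order, against 60.7, 58.5, 69.0 and 52.4 TPM across the cKO libraries. The lowest WT library lay just below the highest cKO library, and WT replicate 2 was far above all others. With 8 libraries 5 of 6 members had negative log2 fold changes for cKO against WT, with a median of −0.48 against −0.0048 over all 15098 tested genes. Without WT replicate 2 it was 4 of 6, with a median of −0.15 against 0.00020.

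No member passed the test across all genes. At an adjusted p below 0.05 (edgeR's quasi-likelihood test with Benjamini-Hochberg adjustment over all tested genes) 0 of 6 members were called, beside 0% of all tested genes. Without WT replicate 2 it was again 0 of 6, beside 0.00661% of all genes. At an unadjusted p below 0.05 3 of 6 members were lower in cKO with all libraries, where 1.25% of all tested genes were lower, 0.397% higher and 1.65% either at that level. DESeq2 also called 0 members. The same 3 genes, Ccn2, Ccn3 and Ccn5, had an unadjusted p below 0.05 without WT replicate 2. In that fit 1.08% of all genes were lower, 0.86% higher and 1.94% either at that level. With a cKO library left out Ccn2 and Ccn3 did not always reach that level. In CPM the groups overlapped for all 6 members, so that 0 of 6 were apart, beside 1.52% of tested genes with all libraries (0.914% lower and 0.603% higher in cKO). It was 0 of 6 without WT replicate 2 as well, beside 3.53% (2.02% lower and 1.51% higher). Whether the tissue held fewer cells of a type or less RNA per cell cannot be told apart in bulk libraries. Nothing in the labels says that the libraries came from separate animals beyond the design text's mention of biological replicates, and no label assigns a library to any of the 4 sequencing batches, so batch could not be entered in a fit.

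**Figure D2:**
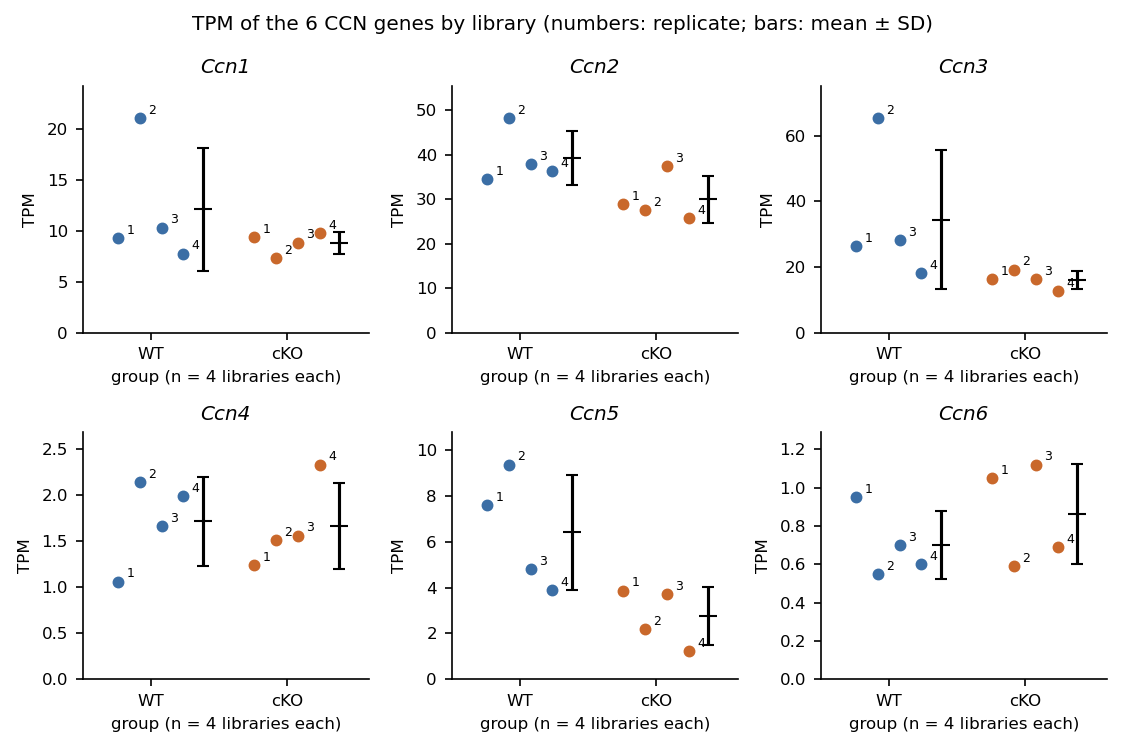
Each panel shows the TPM of a CCN gene (vertical axis, starting at 0) in the 4 WT and 4 cKO libraries (horizontal axis), with the replicate number beside each point and the mean ± SD as a bar. WT replicate 2 is the highest library for Ccn1, Ccn2, Ccn3 and Ccn5, and not for Ccn4 or Ccn6.

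Ccn3, formerly Nov, encodes a CCN protein that binds integrins and NOTCH1 and is known for restraining proliferation. It stood at 26.3, 65.4, 28.2 and 18.01 TPM across the WT libraries in replicate order, against 16.3, 19.2, 16.3 and 12.6 TPM across the cKO libraries, from 218 to 1346 estimated counts per library. WT replicate 2 was high, WT replicates 1 and 3 lay above all cKO libraries, and WT replicate 4 lay inside the cKO range. The mean was 34.5 ± 21.1 TPM in WT and 16.1 ± 2.73 TPM in cKO (SD, n = 4 each).

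The size of the Ccn3 difference moved by over 1.5 times with WT replicate 2. The log2 fold change was −1.17 (95% interval −2.11 to −0.24, unadjusted p = 0.0192, adjusted p = 0.887, edgeR) with all libraries. Without WT replicate 2 it was −0.57 (−0.97 to −0.18, unadjusted p = 0.0091, adjusted p = 0.9997, edgeR), and the WT mean was 24.2 ± 5.42 TPM (SD, n = 3). Both intervals lie below 0, and neither value passed over all genes. Within WT the SD of log2 CPM (counts scaled to a common library total) of Ccn3 was 0.87, larger than that of nearly all tested genes, and it was 0.36 without WT replicate 2 and 0.25 in cKO.

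The ratio of Ccn3 to Ccn2 followed the same libraries. It was 0.761, 1.35, 0.741 and 0.496 across the WT libraries in replicate order, against 0.563, 0.695, 0.435 and 0.487 across the cKO libraries, on the TPM scale. WT replicate 4 again lay within the cKO range. Ccn3 therefore held 26.3% to 44.5% of the family TPM in WT and 23.6% to 32.9% in cKO.

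Ccn5, formerly Wisp2, encodes the member without the cystine knot, which is known as an inhibitor of smooth muscle growth. It stood at 7.60, 9.37, 4.80 and 3.89 TPM across the WT libraries in replicate order, against 3.87, 2.19, 3.70 and 1.23 TPM across the cKO libraries. In TPM every cKO library lay below every WT library. The nearest values, 3.89 and 3.87 TPM, were nearly equal and both rested on 46 estimated counts. In CPM the groups overlapped. For comparison, 0.914% of tested genes had all cKO values below all WT values in CPM.

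Ccn5 kept the larger part of its difference without WT replicate 2. Its log2 fold change was −1.28 (95% interval −2.24 to −0.32, unadjusted p = 0.0149, adjusted p = 0.887, edgeR), and −0.97 (−1.80 to −0.14, unadjusted p = 0.0267, adjusted p = 0.9997, edgeR) without that library. The means were 6.42 ± 2.52 TPM in WT and 2.75 ± 1.26 TPM in cKO (SD, n = 4 each), and 5.43 ± 1.93 TPM in WT without replicate 2 (SD, n = 3). Counts were low, from 15 in cKO replicate 4 to 134 in WT replicate 2. In cKO the SD of its log2 CPM was 0.70, larger than that of 98.4% of tested genes.

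Ccn2, formerly Ctgf, encodes connective tissue growth factor, which is known for promoting matrix production. It stood at 34.6, 48.3, 38.01 and 36.3 TPM across the WT libraries in replicate order, against 28.9, 27.7, 37.5 and 25.8 TPM across the cKO libraries. The other 3 WT libraries were close together, and cKO replicate 3 lay among them while the remaining 3 cKO libraries lay below every WT library. The log2 fold change was −0.44 (95% interval −0.81 to −0.065, unadjusted p = 0.0266, adjusted p = 0.887, edgeR). Without WT replicate 2 it was −0.26 (−0.50 to −0.025, unadjusted p = 0.0339, adjusted p = 0.9997, edgeR). The SD of its log2 CPM without that library was 0.054 in WT, larger than that of only 20.5% of tested genes, and 0.21 in cKO.

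Ccn1, formerly Cyr61, encodes an immediate early matricellular protein induced by growth factors and mechanical load. It stood at 9.28, 21.1, 10.3 and 7.77 TPM across the WT libraries in replicate order, against 9.37, 7.30, 8.85 and 9.82 TPM across the cKO libraries. Apart from WT replicate 2 the groups overlapped throughout. The log2 fold change was −0.52 (95% interval −1.30 to 0.25, adjusted p = 0.887, edgeR), and −0.030 (−0.35 to 0.29, adjusted p = 0.9997, edgeR) without that library. The second estimate corresponds to a level 0.979 times that of WT.

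Ccn4, formerly Wisp1, encodes a WNT-induced matrix protein known from bone and tumour stroma. It stood at 1.06, 2.14, 1.66 and 1.99 TPM across the WT libraries in replicate order, against 1.24, 1.51, 1.56 and 2.33 TPM across the cKO libraries. The groups covered nearly the same range, and the highest library was cKO replicate 4. The log2 fold change was −0.10 (95% interval −0.77 to 0.56, adjusted p = 0.928, edgeR) and changed sign to 0.082 (−0.53 to 0.70, adjusted p = 0.9997, edgeR) without WT replicate 2.

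Ccn6, formerly Wisp3, is the member whose human counterpart is mutated in progressive pseudorheumatoid dysplasia, a cartilage disorder. It stood at 0.95, 0.55, 0.70 and 0.60 TPM across the WT libraries in replicate order, against 1.05, 0.59, 1.12 and 0.69 TPM across the cKO libraries, from 32 to 57 estimated counts. The groups overlapped, and Ccn6 was the only member with a positive log2 fold change when all libraries were used, at 0.23 (95% interval −0.32 to 0.78, adjusted p = 0.887, edgeR). Without WT replicate 2 it was 0.17 (−0.39 to 0.73, adjusted p = 0.9997, edgeR). Tube1, which shares sequence with it on the opposite strand, stood at 3.08 ± 0.484 TPM in WT and 3.01 ± 0.253 TPM in cKO (SD, n = 4 each), above Ccn6 in both groups.

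**Figure D3:**
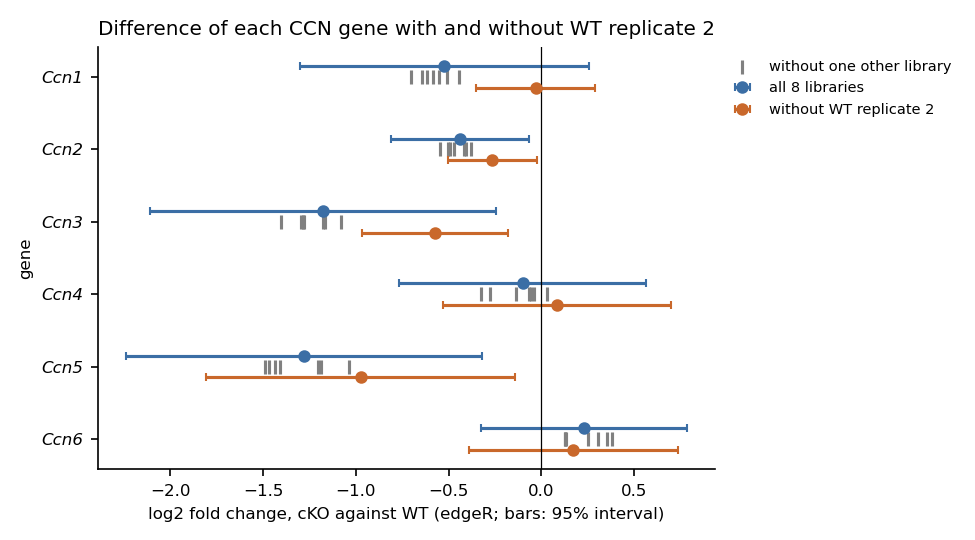
Points give the log2 fold change of each CCN gene for cKO against WT (horizontal axis) with 95% intervals, with all 8 libraries and without WT replicate 2, and grey ticks give the values with any other library left out. For Ccn2, Ccn3 and Ccn5 both intervals lie below 0, and for Ccn1 the point moves from −0.52 to −0.030 without WT replicate 2. Intervals of the grey ticks are not drawn, and some of them crossed 0 for Ccn2 and Ccn3.

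The position of WT replicate 2 differed between members. Its log2 CPM exceeded the mean of the other 7 libraries by 1.95 for Ccn3, 1.55 for Ccn5, 1.4 for Ccn1, 0.75 for Ccn2 and 0.60 for Ccn4, and lay 0.31 below it for Ccn6 (−0.31). In CPM it was the highest library for 5 of the 6 members and the lowest for 0, beside 37.5% and 36.7% of all tested genes. On the TPM scale it was the highest for 4, since cKO replicate 4 was higher for Ccn4. The median over all tested genes was 0.0023.

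Cell type markers moved with WT replicate 2 as well. Of the 12 fibroblast markers 11, and of the 8 nociceptor markers all 8, had their highest TPM in that library. The fibroblast exception, Pdgfra, was lowest there, at 15.86 TPM against 18.42 to 21.2 TPM. The 8 mural markers, which mark smooth muscle and pericytes, summed to 205.4 TPM there and to 89.5 to 147.2 TPM elsewhere. Of these 5 had their highest TPM in that library, while Abcc9 was lowest there, at 2.64 TPM against 3.36 to 5.02 TPM. The 7 pan sensory neuron markers, all 7 highest there, summed to 5919 TPM, against 849.2 to 2085 TPM elsewhere. The 7 Schwann and satellite cell markers, 6 of them highest there, summed to 7428 TPM, against 3031 to 6439 TPM. The exception, Kcnj10, was lowest there, at 142 TPM against 361.9 to 441.3 TPM. Sums of spinal neuron, astrocyte and oligodendrocyte markers were lowest in that library. None of these markers was at 0 in any library. The part of these cells in the levels of Ccn1, Ccn2, Ccn3 and Ccn5 was not tested.

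Marker sums also varied among the libraries other than WT replicate 2. Fibroblast markers summed to 762 TPM in WT replicate 1, the lowest of all 8 libraries, where Ccn5 had its second highest level. They summed to 1393 TPM in WT replicate 3, where Ccn3 had its highest level outside WT replicate 2, 987.7 TPM in WT replicate 4 and 835.5 to 1061 TPM in cKO. Outside WT replicate 2 Dcn, a matrix proteoglycan, reached the highest level of this list, at 223.9 to 592.2 TPM. The fibroblast marker Igf2, an insulin-like growth factor gene, was singled out after its values were seen. It did not overlap between the groups, at 62.5 to 168.1 TPM in WT and 36.8 to 53.8 TPM in cKO. Every other marker of the list overlapped, among them Dcn, at 223.9 to 1504 TPM in WT and 325.6 to 462.4 TPM in cKO. In CPM 0.914% of tested genes had all cKO values below all WT values. Nociceptor markers summed to 268.6, 3013, 957.9 and 372.9 TPM across the WT libraries in replicate order. In the cKO libraries they summed to 519.2, 851.4, 220.0 and 607.4 TPM. In the same order Ccn3 was at 26.3, 65.4, 28.2 and 18.01 TPM in WT and 16.3, 19.2, 16.3 and 12.6 TPM in cKO. The part of nociceptors in the Ccn3 level was not tested. Endothelial markers summed to 103.0 to 126.1 TPM in WT and 79.1 to 129.6 TPM in cKO. Skeletal muscle markers summed to 45.3, 85.3, 40.4 and 628.8 TPM across the WT libraries in replicate order. In the cKO libraries they summed to 261.9, 110.0, 128.0 and 585 TPM. Ccn3 and Ccn5 were lowest of their group in replicate 4 of both groups, while Ccn1 and Ccn4 had their highest cKO level there. The part of adjacent muscle in these levels was not tested. Cartilage and bone markers, of interest for Ccn4 and Ccn6, summed to 34.8 to 54.0 TPM in WT and 23.0 to 52.1 TPM in cKO, with Matn3 at 0 in some libraries.

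**Figure D4:**
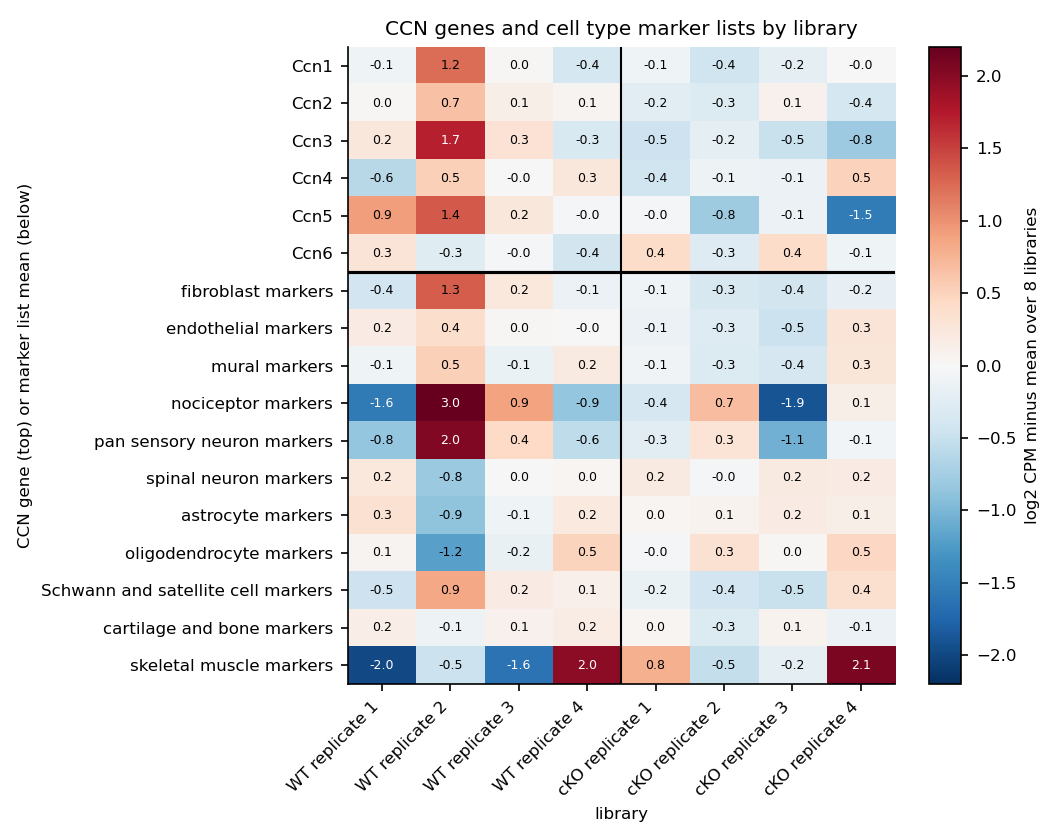
Colours and numbers give log2 CPM minus the mean over 8 libraries (red above, blue below) for the 6 CCN genes and for the means of 11 marker lists (vertical axis) in each library (horizontal axis). Ccn3, fibroblast and nociceptor markers are highest in WT replicate 2, while spinal neuron, astrocyte and oligodendrocyte markers are lowest there.

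The genes whose profiles were most like those of the members were found by the mean absolute difference between standardised log2 CPM profiles, in SD units, among 14224 genes. Over 8 libraries the nearest to Ccn3 were Lbp, Col6a2, Dse, Ccdc80 and Sfrp4, all within 0.156 SD, where the median gene was at 1.05 SD. Over the 7 libraries without WT replicate 2 they were Ip6k1, Cebpd, Adcy6, Axl and Prrc2b, within 0.231 SD, and 0 of 5 genes were shared between the lists. The genes named for Ccn3 depended on WT replicate 2.

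For Ccn1 the nearest genes were Cdk2ap2, Rnase4 and Tm4sf1 over 8 libraries, and of these 1, Tm4sf1, remained among the 3 nearest over 7. Rab29 for Ccn4 and Pcdhb8 for Ccn6 were likewise the 1 gene of 3 that remained. For Ccn2 (Ocel1, Ift140 and Ptgis over 8 libraries) and Ccn5 (Esm1, Nox4 and Topbp1) 0 of 3 remained. Among the members themselves Ccn2 and Ccn3 were the nearest pair over 8 libraries, at 0.368 SD, and Ccn3 and Ccn5 over 7, at 0.584 SD.

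The receptors and co-receptors of CCN proteins had mostly negative log2 fold changes and no member that passed. Of 15 listed genes 14 were tested, 10 with a negative and 4 with a positive value, 0 called, with a median of −0.24, while 51.5% of all tested genes were negative. Without WT replicate 2 again 10 of 14 were negative, and the median was −0.061. Notch1, the receptor bound by CCN3, stood at 5.76, 5.67, 4.86 and 6.08 TPM across the WT libraries in replicate order, against 4.37, 4.82, 4.63 and 4.75 TPM across the cKO libraries. Every WT library was above every cKO library for this gene in TPM, with the nearest values at 4.86 and 4.82 TPM. Notch1 was named for having the lowest p of its list. The share of all genes apart in this direction was counted in CPM only, at 0.914%. The log2 fold change of Notch1 was −0.30 (unadjusted p = 0.0114, adjusted p = 0.887, edgeR), and −0.25 (unadjusted p = 0.0207) without WT replicate 2.

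Itgav and Itga2b had extreme values in WT replicate 2. Itgav, the alpha subunit shared by several CCN receptors, stood at 30.3 ± 8.71 TPM in WT and 37.3 ± 1.49 TPM in cKO (SD, n = 4 each), with its lowest value, 18.6 TPM, in WT replicate 2. Itga2b, the platelet integrin subunit, stood at 4.80 ± 3.68 and 2.71 ± 0.840 TPM (SD, n = 4 each), with its highest value, 10.1 TPM, in the same library. The log2 fold change of Itgav was 0.28 and that of Itga2b −0.91, and without that library they were 0.14 and −0.15.

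The pathways upstream of Ccn1 and Ccn2 had 0 called genes. Of 15 YAP and TAZ pathway genes 11 were negative (median −0.12), and of 18 tested target genes outside the family 13 were negative (median −0.13). Tead4, a DNA-binding partner of YAP, stood at 0.655 ± 0.262 TPM in WT and 0.415 ± 0.07 TPM in cKO, and Tead1 at 6.86 ± 0.608 and 6.41 ± 0.358 TPM (SD, n = 4 each). The log2 fold change of Tead4 was −0.71 with all libraries and −0.40 without WT replicate 2, and that of Tead1 was −0.12 and −0.13. Among the targets Myof, a membrane repair protein, stood at 1.02 ± 0.432 and 0.508 ± 0.215 TPM (SD, n = 4 each). Its log2 fold change was −1.01 with all libraries and −1.09 without WT replicate 2 (unadjusted p = 0.0292 and 0.0206, adjusted p = 0.887 with all libraries, edgeR). Ptpn14, a phosphatase that restrains YAP, had −0.54 and −0.28, and Ccdc80 had −0.37 and −0.18. Without that library the list medians were −0.028 and −0.064.

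Actin-responsive and transforming growth factor beta genes shifted with the same library. Of 14 serum response factor and actin-responsive genes 9 were negative with all libraries (median −0.087) and 4 without WT replicate 2 (median 0.028). Myl9, a smooth muscle myosin light chain, stood at 69.7 ± 28.8 TPM in WT and 47.4 ± 8.46 TPM in cKO (SD, n = 4 each), and its log2 fold change was −0.61 with and −0.21 without that library. Flna, which crosslinks actin, had −0.41 and −0.16, and Cnn2, an actin-binding calponin, −0.64 and −0.14. Of 18 transforming growth factor beta genes 15 were negative in both fits, with medians of −0.26 and −0.034. Eng, a co-receptor of endothelial cells, stood at 10.4 ± 1.75 TPM in WT and 7.96 ± 1.04 TPM in cKO (SD, n = 4 each), a log2 fold change of −0.43 (unadjusted p = 0.036, adjusted p = 0.887, edgeR) and −0.27 without WT replicate 2. Tgfbr3 and Ltbp4, a co-receptor and a latent complex protein, had −0.47 and −0.41 with all libraries and −0.19 and −0.16 without it.

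WNT target genes and NOTCH genes, which bear on Ccn4 and Ccn3, had 0 called genes as well. Of 10 tested WNT targets 8 were positive with all libraries (median 0.033) and 4 without WT replicate 2 (median −0.031). Lgr6, a receptor for R-spondins, stood at 2.96 ± 0.906 TPM in WT and 3.99 ± 0.995 TPM in cKO (SD, n = 4 each). Its log2 fold change was 0.42 with all libraries and 0.25 without WT replicate 2. Tcf7 had −0.12 and −0.17, and Nkd1 had 0.10 and 0.032. Of 13 NOTCH genes 8 were negative in both fits (medians −0.19 and −0.070). Hes5, a NOTCH target, stood at 3.58 ± 0.629 TPM in WT and 2.37 ± 0.654 TPM in cKO (SD, n = 4 each), and its log2 fold change was −0.58 with all libraries and −0.57 without WT replicate 2 (unadjusted p = 0.0439 and 0.0585, adjusted p = 0.887 with all libraries, edgeR). Nrarp, which feeds back on NOTCH, had −0.35 and −0.23, and Notch2 had −0.24 and −0.17.

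Other matricellular genes also had mostly negative log2 fold changes. Of 14 tested with all libraries 10 were negative (median −0.31), and of 15 tested without WT replicate 2 11 were negative (median −0.10), with 0 called in either. Thbs1, thrombospondin 1, stood at 12.6, 42.5, 21.5 and 12.1 TPM across the WT libraries in replicate order, against 7.83, 12.8, 9.75 and 6.03 TPM across the cKO libraries. WT replicate 2 was again the highest library, and cKO replicate 2 lay above WT replicates 1 and 4. Its log2 fold change was −1.36 (unadjusted p = 0.0167, adjusted p = 0.887, edgeR) and −0.75 without WT replicate 2 (unadjusted p = 0.0192). Smoc1, a calcium-binding matricellular protein, had −0.24 and −0.20, and Tnc, tenascin C, had −0.39 and −0.25.

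**Figure D5:**
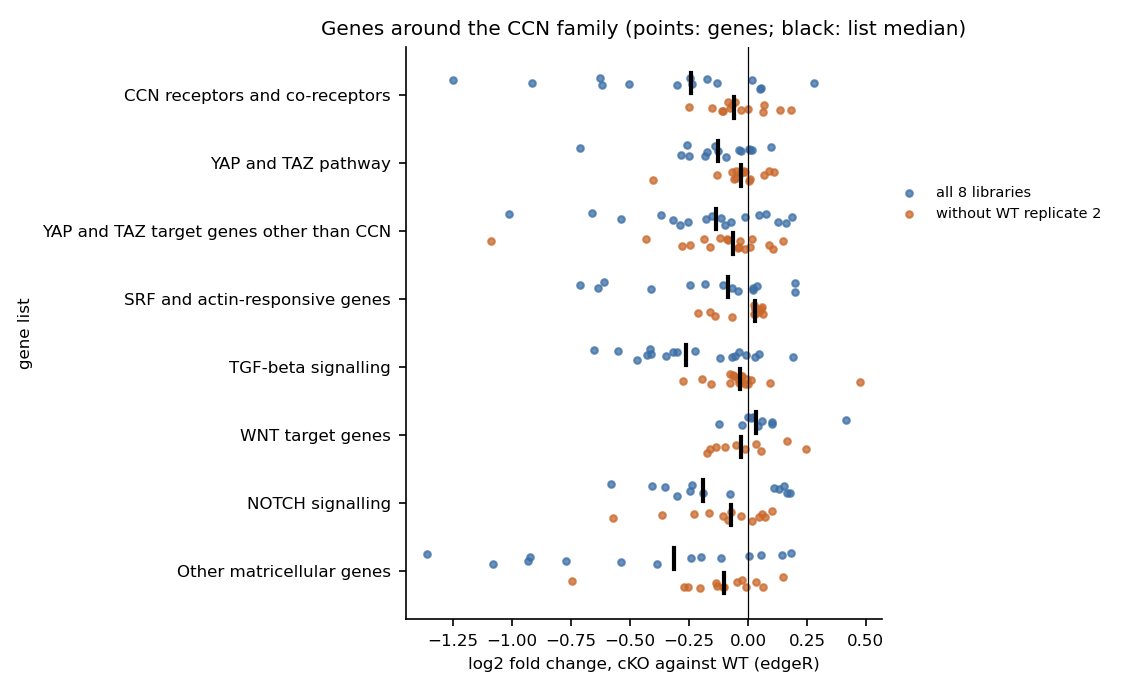
Points give log2 fold changes for cKO against WT (horizontal axis) of genes in 8 lists around the CCN family (vertical axis), with all 8 libraries and without WT replicate 2, and black bars give the list medians. The medians of 7 lists are negative with all libraries, and all 8 lie between −0.10 and 0.028 without WT replicate 2.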

How the data were processed

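The authors deposited 1 table of gene-level values for 8 libraries of total RNA. Its columns hold estimated counts and TPM per gene as deposited. The submitters' processing notes list HISAT2 2.2.1, Bowtie2 2.4.5 and RSEM 1.3.1, with GRCm38 (mm10) as the build and no roles for the tools, and neither annotation nor strand setting is stated there. Value columns named Ctrl were matched to the samples titled WT with the same number. Estimated counts were rounded, then tested in R 4.3.3 by edgeR 4.0.16 (filterByExpr by group, TMM scaling, quasi-likelihood test, group as the only term), and p-values were adjusted over all tested genes by Benjamini-Hochberg at 0.05. Standard errors came from the F statistic, and intervals are at the 95% level. DESeq2 1.42.0, limma 3.58.1 (also on log2(TPM + 1) and log2(TPM + 0.1)), other scaling, no filter, a replicate block and leaving out each library were alternatives. CPM use TMM-scaled totals, and log2 CPM a prior count of 2. Members below about 100 counts carry large counting error. Functions were tested on simulated data.

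The family, the gene lists and the rule for named genes were chosen with earlier results of these data known. All 6 members and Alyref are given, then the 3 genes of lowest p from each list, since no list had a called gene, and the genes of nearest profile (5 for Ccn3, 3 for each other member, mean of at least 1 CPM). Ccn6 was compared with Tube1 after the overlap was seen. RefSeq positions matched 18507 of 18560 identifiers. Shared runs were sought in the longest coding transcript of each member on both strands, against all GENCODE vM21 transcripts.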

Additional observations from a re-analysis of the deposited data

Results flagged for a closer look

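WT replicate 2 stood apart from the other 3 WT libraries for Ccn1 and for Ccn2, in CPM. The gap between this library and the next highest WT library was 0.842 of the whole WT range for Ccn1 and 0.863 for Ccn2, above Dixon's critical value for 4 samples. On the TPM scale it was 0.808 and 0.751, below that value. These were 2 of 40 groups examined, over measures that are not independent of each other, and chance flags about 1 in 20 groups. The WT values were 8.24, 20.8, 8.96 and 6.72 CPM for Ccn1 and 37.5, 58.2, 40.4 and 38.4 CPM for Ccn2 in replicates 1 to 4.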

How the results depend on the processing

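Over 16 settings the log2 fold change was negative in all for Ccn1 (−0.70 to −0.030), Ccn2 (−0.55 to −0.26), Ccn3 (−1.40 to −0.57), Ccn5 (−1.49 to −0.97) and Alyref (−0.16 to −0.023), and positive in all for Ccn6 (0.12 to 0.38), with 0 members called in any of them. Those extremes all came from leaving out a library. Ccn4 ranged from −0.33 without cKO replicate 4 to 0.082 without WT replicate 2, and was also positive without cKO replicate 1, at 0.028. The lowest adjusted p of any member was 0.631, without WT replicate 1 (edgeR). The number of called genes was 1 with DESeq2 and 0 to 1 with a library left out, and the cause was not tested. With the replicate block the log2 fold change was −0.98 for Ccn3, −1.28 for Ccn5, −0.42 for Ccn2 and −0.38 for Ccn1, and 0 genes were called. Deviations of same-numbered libraries correlated at 0.0078, 0.045, −0.037 and 0.25 (across genes). Libraries of different numbers correlated at −0.22 to 0.27, so the numbers did not pair the libraries as a set. The value for replicate 4, 0.25, was near the top of that range, and whether those libraries were linked was not tested. At an unadjusted p below 0.05 the block gave 213 genes. That number was 820 without WT replicate 1 and 614 without WT replicate 4, and 131 to 293 without any other single library. With limma Ccn3 was at −0.90 and Ccn5 at −0.99 on log2(TPM + 1), and at −0.94 and −1.24 on log2(TPM + 0.1). Depth limits Ccn4, Ccn5 and Ccn6, whose libraries held 15 to 134 estimated counts each.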
